A study of Homo sapiens with 14 samples.

Results

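The transcription factors TP63, SOX2, PITX1, KLF4, KLF5, GRHL2, TFAP2A, TFAP2C and OVOL1 were examined in SCC23 cells, an established line of head and neck squamous cell carcinoma (HNSCC). They were taken by gene name from the count tables, and these 9 genes of 59471 gene names all had counts. SCC23 cells that had received Cas9 and a guide against the bacterial gene LacZ served as KMT2D-WT control, and the lines KO1 and KO2 had received Cas9 and a guide against KMT2D, an H3K4 methyltransferase that acts at enhancers. All lines were grown from GFP-sorted transfected cells, no cloning of single cells was described, and every comparison therefore rests on 1 parental cell line. The cells were kept in glucose (+Glc) or held for 6 h in medium without glucose (−Glc), which gave 3 RNA-seq libraries of KMT2D-WT and 4 of KMT2D-KO cells per condition. Experiment 1 gave 1 KMT2D-WT, 1 KO1 and 1 KO2 library per condition, and experiment 2 gave 2 KMT2D-WT libraries (WT1 and WT2) and, by their labels, 1 KO1 and 1 KO2 library per condition.

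These factors hold stratified epithelium in its squamous state. p63, the product of TP63, marks the basal layer and opens enhancers of basal keratin and adhesion genes together with AP-2 factors (TFAP2A and TFAP2C), KLF5 and GRHL2, while SOX2 and PITX1 partner with p63 in squamous carcinomas. KLF4 and OVOL1 act mainly as cells leave the basal layer and differentiate, and GRHL2 and OVOL1 are also known as guardians of the epithelial state against mesenchymal transition.

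Total counts per library ran from 15669154 to 62968057. In the 4 libraries of experiment 2 with glucose both mates of each read pair had been counted, whereas the other 10 libraries held single reads, so the step from glucose to no glucose in experiment 2 cannot be told apart from that change of sequencing. Without glucose, the WT1 and WT2 libraries of experiment 2 differed by a chi-square of only 1.65 per gene, and the libraries labelled KO1 and KO2 of that experiment by 1.71, against 23.0 to 72.7 for other such pairs. The spread within those pairs is therefore smaller than elsewhere. Both of these KMT2D-KO libraries were also deposited under names that read KO2, so their line labels are in doubt and KO1 may be absent there. The lines were therefore compared only with glucose. KMT2D itself stood at 266 to 279 CPM (counts scaled to a common library total) in KMT2D-WT cells with glucose, at 182 and 184 CPM in KO1, and was higher in KO2 at 323 and 373 CPM. Without glucose it stood at 231 to 239 CPM in KMT2D-WT cells and at 145 to 190 CPM in 3 KMT2D-KO libraries, with 19.9 CPM in KO1 of experiment 1. An edit in the coding sequence need not lower the mRNA, so KMT2D counts do not test the edit. For its KMT2D-KO SCC23 cells the paper reports mutations by genomic sequencing and loss of KMT2D protein by western blot. Of 8 squamous markers, KRT5, KRT14, KRT17, DSG3, SFN and TP63 averaged over 1 CPM in all 4 groups, while KRT6A and TRIM29 stayed at 1.13 CPM or less in every library. The 8 fibroblast markers summed to 3.26 to 7.13 CPM in KMT2D-WT and 7.37 to 27.0 CPM in KMT2D-KO libraries, with COL1A1 the highest of them, and the 8 immune and endothelial markers to 0.39 to 1.22 CPM and 0.36 to 4.40 CPM. Their part in the results below was not tested, and in bulk RNA fewer cells of a type and less RNA per cell cannot be told apart.

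Per exon length, KLF5 was the highest of the 9 factors in KMT2D-WT cells with glucose, at 21.7 ± 2.85 RPKM (CPM per kilobase of exon; SD, n = 3). TFAP2A followed with 15.8 ± 3.07, TP63 with 11.3 ± 2.24 and PITX1 with 10.3 ± 1.87 RPKM, and the libraries of these 3 overlapped from one to the next. GRHL2 stood at 7.84 ± 0.77 RPKM and TFAP2C at 3.98 ± 0.13 RPKM, each clear of its neighbours. KLF4 at 2.03 ± 0.56 and OVOL1 at 1.33 ± 0.95 RPKM overlapped, and SOX2 was the lowest at 0.49 ± 0.07 RPKM. That order changed most for KLF4, which in KMT2D-KO cells without glucose stood at 45.7 ± 10.5 RPKM (n = 4), as a level next to KLF5 at 59.8 ± 25.6 RPKM. Gene counts do not separate the p63 forms that start at the upstream and the internal promoter.

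**Figure D1:**
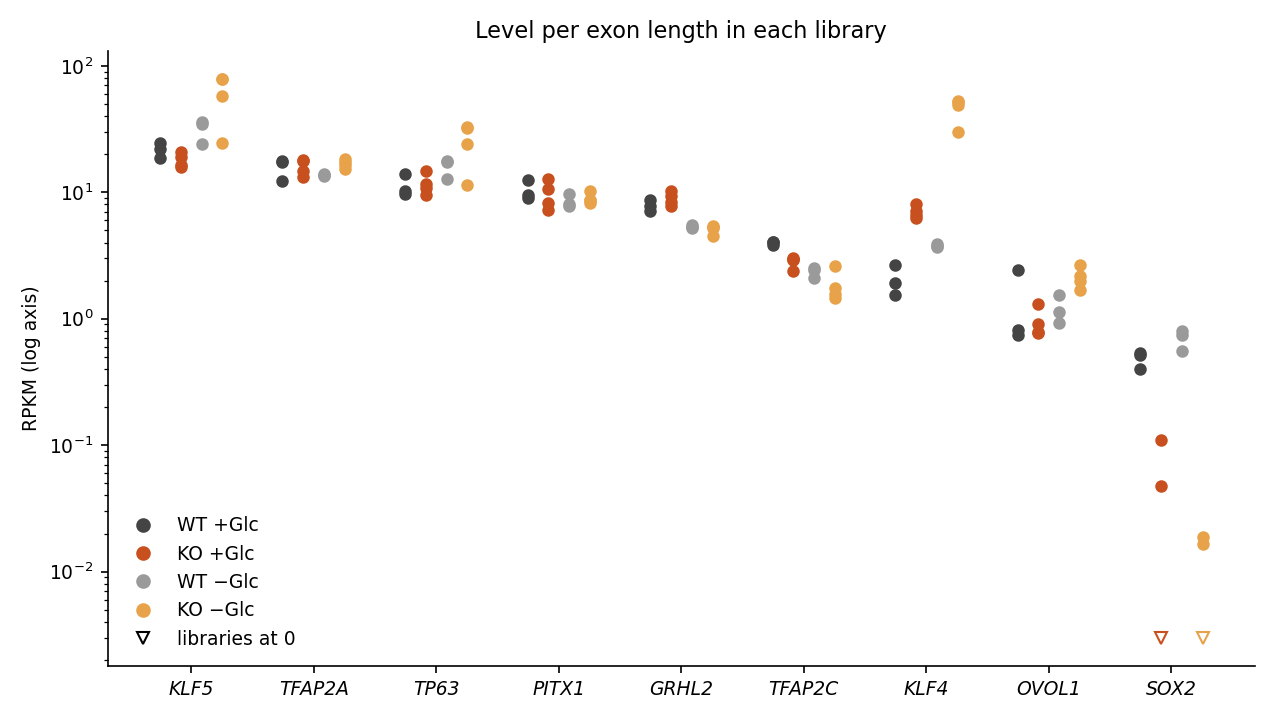
RPKM of each factor in each library on a log axis, ordered by the mean in KMT2D-WT cells with glucose; open triangles mark libraries at 0. KLF4 moves from 2.03 RPKM in KMT2D-WT cells with glucose to 45.7 RPKM in KMT2D-KO cells without glucose, and SOX2 is at 0 in 4 KMT2D-KO libraries.

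Promoters are shown for SOX2 and KLF4, the factors with the largest differences between the genotypes, and for KLF5, the paralog of KLF4, so that the sequence next to the measured genes can be read. Windows run from 250 bases before to 50 bases after the RefSeq start (GRCh38.p14), 5′ to 3′ on the gene's strand. Capitals mark the KLF motif CACCC and the GC box GGGCGG, read on both strands. Windows were found for 6 of the 9 factors, with 2 each for KLF5 and TFAP2A, and GRHL2, TFAP2C and OVOL1 had none in the table. For KLF5 the second start is shown.
SOX2, chr3:181711675-181711974, plus strand: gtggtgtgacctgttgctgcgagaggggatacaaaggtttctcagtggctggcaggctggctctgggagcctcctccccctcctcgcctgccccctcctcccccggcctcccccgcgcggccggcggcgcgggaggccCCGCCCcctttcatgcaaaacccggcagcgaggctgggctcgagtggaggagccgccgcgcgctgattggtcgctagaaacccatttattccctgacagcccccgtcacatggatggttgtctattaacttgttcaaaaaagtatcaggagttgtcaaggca
KLF4, chr9:107489720-107490019, minus strand: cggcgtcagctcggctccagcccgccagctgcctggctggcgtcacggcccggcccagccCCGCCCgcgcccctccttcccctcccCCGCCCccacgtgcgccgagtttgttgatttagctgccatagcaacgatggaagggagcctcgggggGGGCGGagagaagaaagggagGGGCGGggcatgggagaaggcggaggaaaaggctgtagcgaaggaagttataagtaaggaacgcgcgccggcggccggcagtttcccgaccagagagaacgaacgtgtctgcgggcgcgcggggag
KLF5, chr13:73058755-73059054, plus strand: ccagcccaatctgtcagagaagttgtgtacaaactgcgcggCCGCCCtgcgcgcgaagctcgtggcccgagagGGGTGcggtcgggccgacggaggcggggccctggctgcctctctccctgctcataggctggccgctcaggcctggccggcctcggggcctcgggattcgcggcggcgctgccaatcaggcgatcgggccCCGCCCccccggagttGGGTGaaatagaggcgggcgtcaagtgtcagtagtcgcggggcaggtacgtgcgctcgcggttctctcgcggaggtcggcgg
The KLF4 window held 4 GC boxes and no CACCC, the KLF5 window 2 of each, and the SOX2 window 1 GC box and no CACCC. Of 35116 promoter windows of this length, 45% held a GC box and 59.9% a CACCC. GC content was 69% in the KLF4 window, 71.3% in the KLF5 window and 63.3% in the SOX2 window. The AP-2 motif GCCNNNGGC occurred 1 time each in the KLF4 and SOX2 windows and in 23.2% of all windows. None of the 8 windows of these factors held the GRHL motif AACCNGTT (1.73% of all windows), the PITX motif TAATCC (6.36%), the OVOL motif CNGTTA (20.8%) or a p53 family half-site (6.63%), and the SOX motif CATTGT (10.8%) occurred only in the upstream KLF5 window. The letters TATAAA of the TATA box, read on both strands, were found in the upstream KLF5 window, in 1 TFAP2A window and in 11.5% of all windows. They were also found in the TP63 window at the upstream start. There they read on the opposite strand at the end of the window, after the start, which is not the place of a TATA box. Matches of this kind describe letters and not binding.

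With glucose, KMT2D-KO cells had few or no SOX2 counts, more KLF4 and less TFAP2C than KMT2D-WT cells, while the other 6 factors were not called. SOX2, a pluripotency factor that is amplified in squamous carcinomas, gave 24, 91 and 77 counts in the 3 KMT2D-WT libraries. In KMT2D-KO cells it gave 0 counts in KO1 and 0 in KO2 of experiment 1, and 18 and 7 counts in KO1 and KO2 of experiment 2. Every KMT2D-KO library lay below every KMT2D-WT library. Scaled to library totals, summed SOX2 counts were 8.24-fold lower in KMT2D-KO cells (95% interval 5.42 to 13.1, exact, counting error only, and too narrow because mates were counted apart). In experiment 1 alone, where KMT2D-KO cells had no SOX2 count, the level was at least 12.5-fold lower against a floor of 3 counts over both libraries, and in experiment 2 alone it was 6.61-fold lower (4.32 to 10.5). The edgeR log2 fold change was −3.25 ± 0.58 (SE, adjusted p = 0.00404), a fitted value that depends on how zeros are treated. It ran from −2.73 to −4.10 when single libraries were left out, the last without KO1 of experiment 2. The call held in all of these fits and was lost without experiment as a covariate (adjusted p = 0.0913) and in experiment 1 alone, with 1 KMT2D-WT library (0.124).

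KLF4, a zinc finger factor of differentiating keratinocytes, was found at 9.66, 7.07 and 5.61 CPM in KMT2D-WT cells with glucose. It was higher in KO1 and KO2, at 23.1 and 29.3 CPM in experiment 1 and at 26.0 and 24.1 CPM in experiment 2, so the groups did not overlap. Its log2 fold change was 1.78 ± 0.17, a 3.43-fold higher level (adjusted p = 0.000167), and the call held without any 1 of the 7 libraries (1.64 to 1.97). In experiment 1 alone it was 1.44 (adjusted p = 0.0654). TFAP2C, an AP-2 factor of surface ectoderm, stood at 12.2, 11.5 and 12.1 CPM in KMT2D-WT and at 8.85, 8.81, 9.06 and 7.16 CPM in KMT2D-KO cells. This 1.42-fold lower level (log2 −0.51 ± 0.14, adjusted p = 0.0266) lost its call without any 1 of the 3 KMT2D-WT libraries or KO2 of experiment 2, with adjusted p from 0.063 to 0.119. The counts were 1 higher and 2 lower among 9 factors, against 24.7% of all 20423 genes tested (13% higher and 11.7% lower). The libraries of the genotypes did not overlap for 3 of 9 factors, against 20.1% of all genes (9.66% with KMT2D-KO above and 10.4% below).

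TP63 was level with glucose, at 76.8, 73.0 and 103.7 CPM in KMT2D-WT and 80.7, 71.0, 86.6 and 109.4 CPM in KMT2D-KO cells (log2 0.09 ± 0.13, adjusted p = 0.682). KLF5, the basal partner of KLF4, ran from 69.1 to 90.02 CPM in KMT2D-WT and from 58.2 to 76.6 CPM in KMT2D-KO libraries (−0.23 ± 0.12, adjusted p = 0.203). GRHL2 had a log2 difference of 0.20 ± 0.12, TFAP2A of −0.04 ± 0.13 and PITX1 of −0.13 ± 0.18. OVOL1 had 9.24 CPM in KMT2D-WT of experiment 1 and 2.82 to 4.99 CPM in the 6 other libraries with glucose, so its log2 difference of −0.45 ± 0.26 (adjusted p = 0.242) rests on 1 library and came to −0.02 without it. Some 27.3% of the exon bases of OVOL1 and 16.8% of those of TFAP2A are shared with genes that overlap them, and counting without strand could not tell such reads apart.

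**Figure D2:**
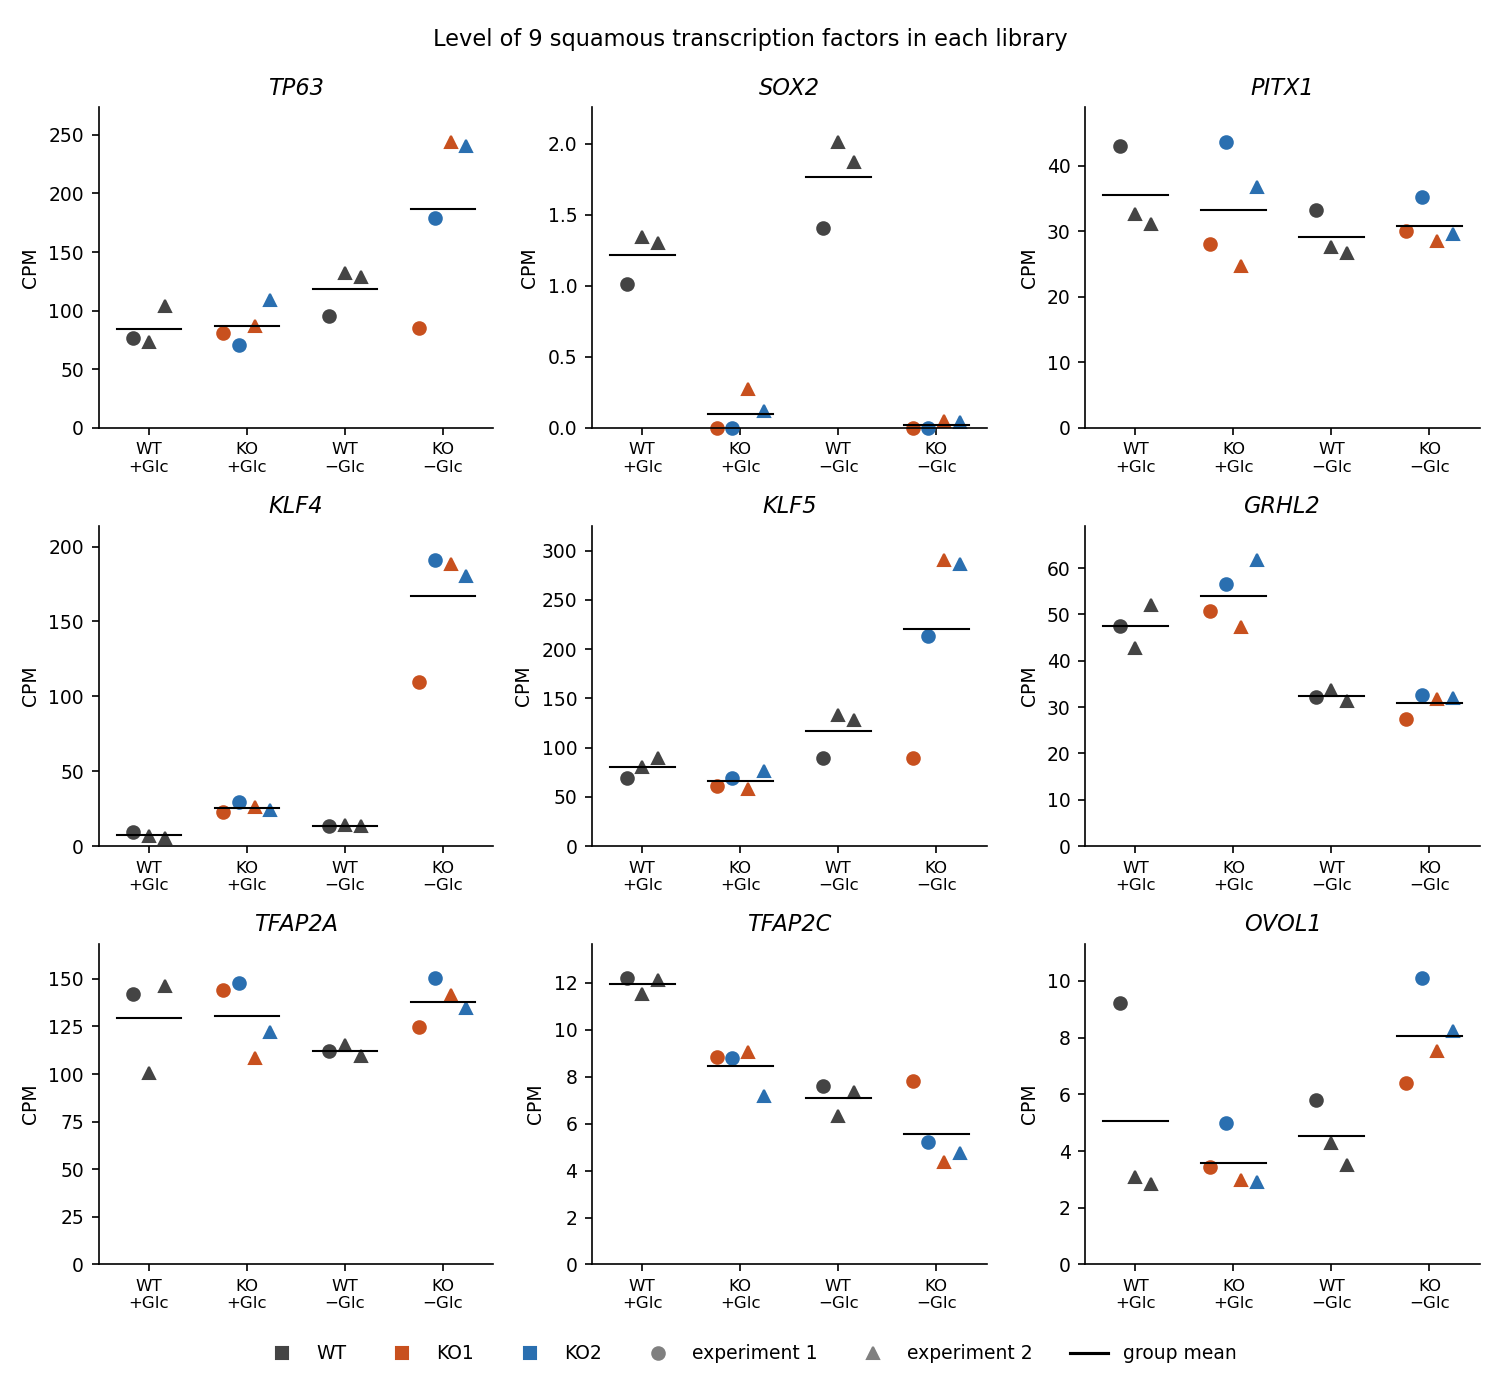
CPM of each factor in each library by group, with axes from 0; colours give the line as labelled, shapes the experiment and bars the group mean. KLF4 in KMT2D-KO cells without glucose lies between 109.8 and 191 CPM, above all other groups, and SOX2 in KMT2D-KO cells lies below all KMT2D-WT libraries.

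Without glucose, KLF4 was again higher and SOX2 lower in KMT2D-KO cells, and TP63, KLF5, OVOL1 and TFAP2A were called higher as well, each with less stable support. KLF4 stood at 13.4, 14.3 and 13.6 CPM in KMT2D-WT cells and at 109.8, 191, 188 and 180 CPM in KMT2D-KO cells. The groups did not overlap, and KO1 of experiment 1 was the lowest of the KMT2D-KO libraries. The log2 fold change was 3.60 ± 0.19, or 12.2-fold (adjusted p = 4.33e-05), and only 1.45% of all genes tested had a larger change in either direction. Leaving out single libraries moved it between 3.47 and 3.71. Within experiment 1 the mean log2 difference was 3.38, and within experiment 2 it was 3.67. Experiment 1 alone, with 1 KMT2D-WT library, gave no call (adjusted p = 0.101).

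SOX2 gave 31, 68 and 53 counts in KMT2D-WT and 0, 0, 1 and 1 counts in KMT2D-KO libraries without glucose. The ratio of summed, scaled counts was 71.1 with a 95% counting interval of 19.3 to 592, in experiment 2 alone the ratio was 43.8 (11.9 to 366), and in experiment 1, with no KMT2D-KO count, the level was at least 15.8-fold lower. The fitted log2 fold change was −5.83 ± 0.46 (adjusted p = 0.000137), and no omission of a single library ended the call.

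TP63 was counted at 95.9, 132 and 128 CPM in KMT2D-WT cells without glucose. Of the KMT2D-KO libraries, KO1 of experiment 1 had 84.9 CPM and KO2 179 CPM, while experiment 2 gave 244 and 240.4 CPM. KO1 of experiment 1 thus lay below all KMT2D-WT libraries and the other 3 above them, and the log2 fold change was 0.70 ± 0.22 (adjusted p = 0.0362). KLF5 had 89.0, 133 and 128 CPM in KMT2D-WT and 89.4, 213, 291 and 287 CPM in KMT2D-KO cells (log2 0.97 ± 0.26, adjusted p = 0.0182). The TP63 call was lost without any 1 of 6 libraries, all but KO1 of experiment 1 (adjusted p up to 0.118), and the KLF5 call without any 1 of 5, these being the 3 KMT2D-WT libraries and those of KMT2D-KO in experiment 2 (up to 0.0689). Without KO1 of experiment 1, the library with 19.9 CPM of KMT2D, the log2 values were 0.86 for TP63 and 1.14 for KLF5. With each close pair of experiment 2 summed into 1 library, TP63 had an adjusted p of 0.226 and KLF5 of 0.152.

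OVOL1, a repressor that drives exit from the basal state, stood at 5.80, 4.30 and 3.53 CPM in KMT2D-WT and at 6.39, 10.1, 7.54 and 8.24 CPM in KMT2D-KO cells without glucose. The groups did not overlap, and the log2 fold change was 0.79 ± 0.19 (adjusted p = 0.0123, and 0.137 with the close pairs summed). That call was lost without WT2 (0.0562) or without the library labelled KO2 (0.0519) of experiment 2. TFAP2A, the more abundant AP-2 factor, lay at 112, 115 and 109.7 CPM in KMT2D-WT and at 125, 150.3, 141 and 135 CPM in KMT2D-KO cells. Its 1.21-fold higher level (log2 0.28 ± 0.07, adjusted p = 0.0193) was lost without any KMT2D-WT library or the library labelled KO1 of experiment 2 (up to 0.119), and with the close pairs summed (0.188). PITX1 at 0.03 ± 0.07, GRHL2 at −0.08 ± 0.08 and TFAP2C at −0.46 ± 0.20 were not called. TFAP2C was at 7.62, 6.31 and 7.33 CPM in KMT2D-WT and at 7.84, 5.22, 4.37 and 4.73 CPM in KMT2D-KO cells, and it was called without KO1 of experiment 1 (log2 −0.60, adjusted p = 0.00017). In all, 5 factors were higher and 1 lower among 9, against 50.8% of the 16782 genes tested (25.9% higher and 24.9% lower). The libraries did not overlap for SOX2, KLF4, TFAP2A and OVOL1, 4 of 9 factors, against 35.2% of all genes (16.3% above and 18.9% below). With the close pairs summed, KLF4 and SOX2 were called and the other 7 factors were not.

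**Figure D3:**
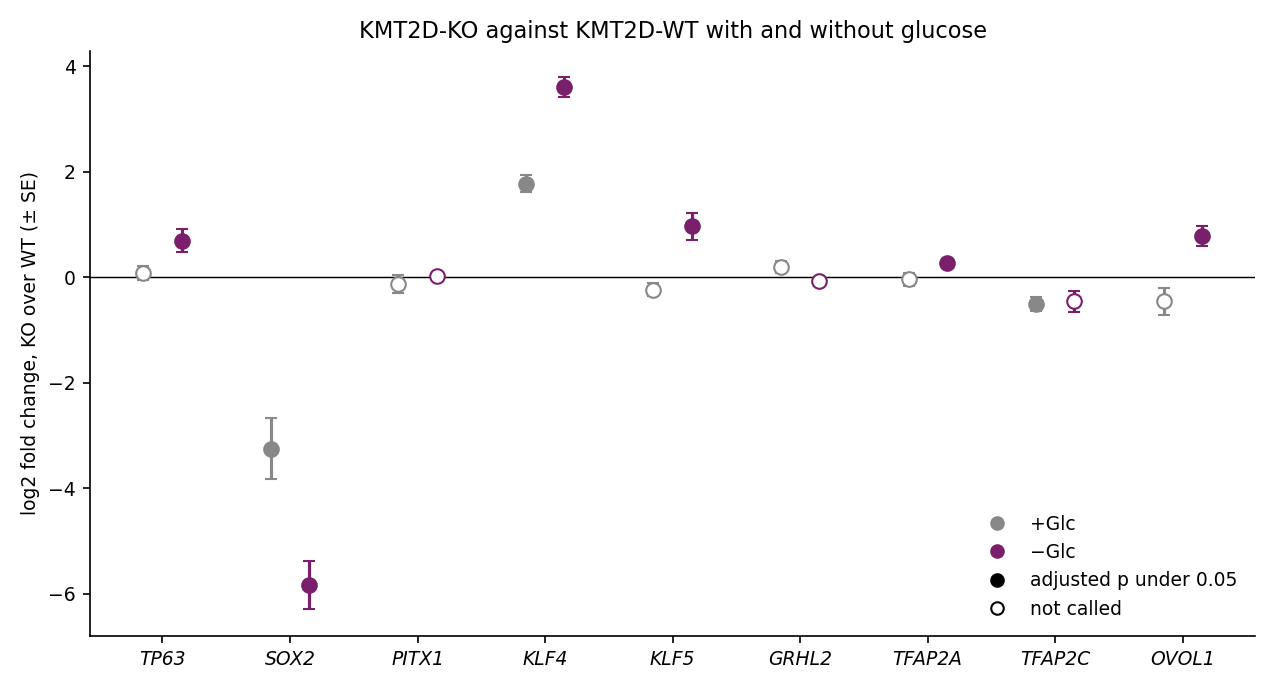
Log2 fold change of KMT2D-KO over KMT2D-WT with its standard error, grey with glucose and purple without; filled points passed an adjusted p of 0.05. KLF4 goes from 1.78 to 3.60 and SOX2 from −3.25 to −5.83, while PITX1 and GRHL2 stay near 0. In the edgeR test of the difference between conditions KLF4 was called (adjusted p = 0.00139) and SOX2 was not (adjusted p = 0.118).

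The 6 h without glucose were then compared with glucose within each genotype. In KMT2D-WT cells, KLF4 rose from a mean of 7.45 to 13.8 CPM (log2 0.93 ± 0.18, adjusted p = 0.0352) and KLF5 from 79.9 to 117 CPM (0.54 ± 0.07, adjusted p = 0.0216). TFAP2C fell from 11.9 to 7.09 CPM (−0.75 ± 0.12, adjusted p = 0.0246), GRHL2 fell from 47.4 to 32.4 CPM (−0.54 ± 0.09, adjusted p = 0.0263), and PITX1 fell from 35.6 to 29.2 CPM (−0.27 ± 0.06, adjusted p = 0.0454). TP63 (0.49 ± 0.14, adjusted p = 0.0675), SOX2 (0.54 ± 0.19), TFAP2A (−0.19 ± 0.15) and OVOL1 (0.06 ± 0.26) were not called. These 5 calls among 9 stood against 14.7% of 17227 genes tested (7.15% higher and 7.58% lower). All 5 were lost without any 1 of the 4 KMT2D-WT libraries of experiment 2 (adjusted p from 0.0604 to 0.209) and with the close pair summed (0.173 to 0.224), fits that called 0 or 1 gene among all tested, while the log2 value of KLF5, for example, stayed between 0.47 and 0.56. The PITX1 call was also lost with RLE scaling (0.0636) and with no filter on low counts (0.074).

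In KMT2D-KO cells 4 factors rose and 2 fell over the same 6 h. KLF4 went from a mean of 25.6 to 167 CPM (log2 2.68 ± 0.19, a 6.40-fold rise, adjusted p = 0.000419). KLF5 went from 66.3 to 220.0 CPM (1.64 ± 0.30, adjusted p = 0.00837) and OVOL1 from 3.58 to 8.07 CPM (1.17 ± 0.23, adjusted p = 0.0103). GRHL2 fell from 54.1 to 30.9 CPM (−0.83 ± 0.11, adjusted p = 0.00344). These 4 calls held without any single library. TP63 rose from 86.9 to 187 CPM (1.03 ± 0.23, adjusted p = 0.016), a call that was lost without KO1 of experiment 2 with glucose or without either library labelled KO2 of experiment 2 (up to 0.0545). TFAP2C fell from 8.47 to 5.54 CPM (−0.66 ± 0.20, adjusted p = 0.0415), and this call was lost without any 1 of 7 libraries, all but KO1 of experiment 1 without glucose (up to 0.161), with RLE scaling (0.0598), with no filter on low counts (0.122) and with the close pair summed (0.151). PITX1 (−0.13 ± 0.18) and TFAP2A (0.07 ± 0.11) were not called, and SOX2 had too few counts to be tested. These 6 calls among 8 tested stood against 30% of 16057 genes (14% higher and 16% lower).

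Experiment 1, in which every library held single reads, gave the direction free of the change of sequencing. There KLF4 changed by 0.45 in KMT2D-WT, 2.22 in KO1 and 2.69 in KO2 on the scale of log2(CPM + 0.5), and KLF5 by 0.36, 0.55 and 1.61. TP63 changed by 0.32, 0.07 and 1.33, so that KO1 moved less than KMT2D-WT. GRHL2 changed by −0.55, −0.88 and −0.78, the same direction in all 3 lines and in both experiments. OVOL1 changed by −0.63 in KMT2D-WT against 0.81 in KO1 and 0.95 in KO2. A fit of experiment 1 alone with line as a term called KLF4, KLF5 and GRHL2 in KMT2D-KO cells and none of the factors in KMT2D-WT cells, which had 1 library per condition.

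**Figure D4:**
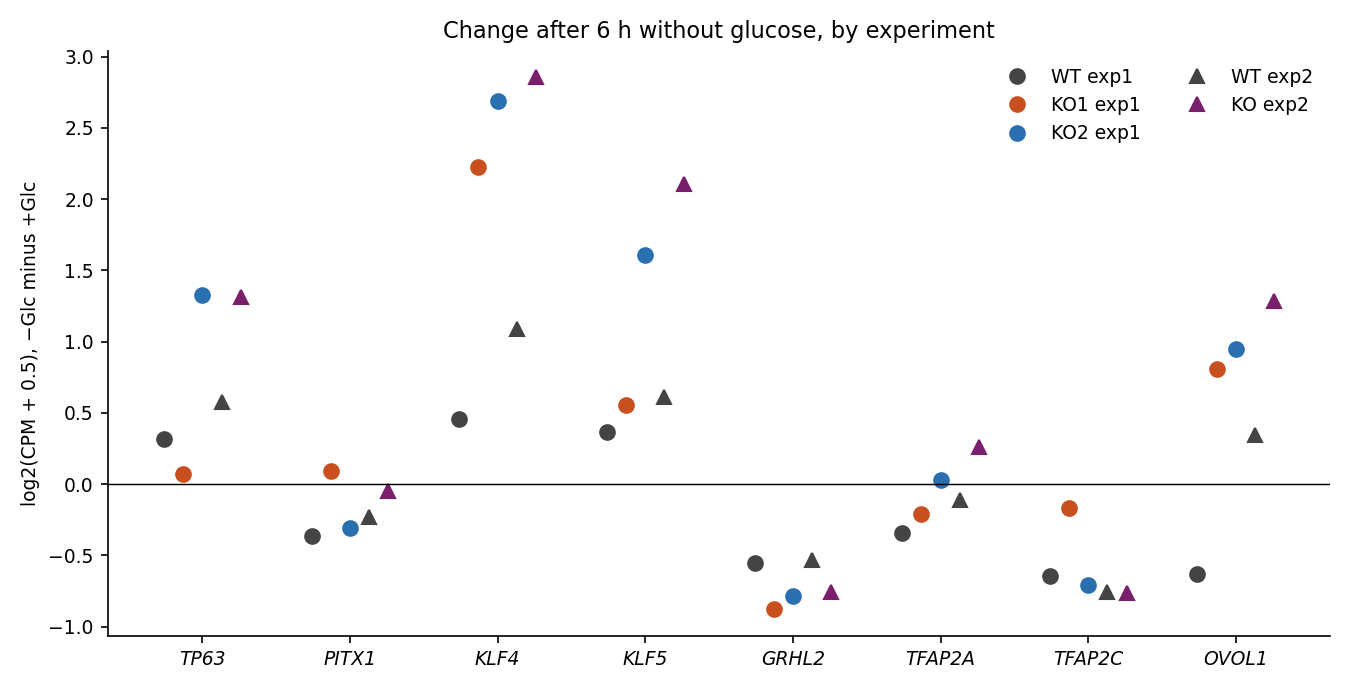
Change of log2(CPM + 0.5) after 6 h without glucose for 8 factors, SOX2 left out; circles are experiment 1 by line, triangles experiment 2 with the KMT2D-KO libraries averaged. KLF4 in KMT2D-KO cells lies between 2.22 and 2.85, above KMT2D-WT at 0.45 and 1.09, and GRHL2 is below 0 in each series.

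All 14 libraries then entered 1 fit to test if the KMT2D-KO effect depended on glucose. KLF4 had an effect larger by 1.85 ± 0.26 on the log2 scale without glucose (adjusted p = 0.00139), and this held without any 1 of the 14 libraries (1.65 to 1.99, adjusted p up to 0.0121) and with the close pairs summed (0.0228). KLF5 had a difference of 1.23 ± 0.32 (adjusted p = 0.0276) and OVOL1 of 1.27 ± 0.35 (adjusted p = 0.0378). Neither held with the close pairs summed (0.15 and 0.185). The KLF5 call was lost without any 1 of the 6 KMT2D-WT libraries, KO1 of experiment 2 with glucose or the libraries labelled KO1 and KO2 of experiment 2 without glucose (adjusted p up to 0.077). The OVOL1 call was lost without any 1 of the 3 KMT2D-WT libraries without glucose, WT1 with glucose, KO2 of experiment 1 with glucose, the same 2 KMT2D-KO libraries of experiment 2 without glucose, or KMT2D-WT of experiment 1 with glucose, the last giving 0.82 (adjusted p = 0.184). TP63 had a difference of 0.64 ± 0.30 (adjusted p = 0.187), which passed only without KO1 of experiment 1 without glucose (0.82, adjusted p = 0.00369) or with no filter on low counts. SOX2 (−2.67 ± 1.04, adjusted p = 0.118), PITX1 (0.18 ± 0.22), GRHL2 (−0.25 ± 0.16), TFAP2A (0.34 ± 0.17) and TFAP2C (0.07 ± 0.23) were not called. Thus 3 of 9 factors differed between the conditions, all in the higher direction, against 11.3% of 18678 genes (4.73% higher and 6.54% lower).

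With glucose the lines could be compared. KO1 differed from KMT2D-WT in SOX2, KLF4, PITX1, KLF5 and TFAP2C, 5 of 9 factors (1 higher) against 33.6% of all genes (17% higher and 16.5% lower), and KO2 in SOX2, KLF4, GRHL2 and TFAP2C, 4 of 9 (2 higher) against 36.8% (18.8% higher and 18% lower). KLF4 was higher by 1.75 ± 0.15 on the log2 scale in KO1 and by 1.83 ± 0.15 in KO2, and the difference between the lines was −0.08 ± 0.16 (adjusted p = 0.822). PITX1, a homeobox factor of oral epithelium and hindlimb, was the only factor that differed directly between the lines (1 of 9, against 15.3% of all genes, 7.89% higher and 7.37% lower in KO1). It stood at 28.1 and 24.7 CPM in KO1 and at 43.7 and 36.8 CPM in KO2, with 43.0, 32.7 and 31.1 CPM in KMT2D-WT. KO1 was lower than KO2 by 0.60 ± 0.10 on the log2 scale (adjusted p = 0.000926) and lower than KMT2D-WT by 0.46 ± 0.10 (adjusted p = 0.00153), and both calls held without any single library. KLF5 in KO1 lay at 60.8 and 58.2 CPM, lower than KMT2D-WT by 0.40 ± 0.10 (adjusted p = 0.00394, lost without KO1 of experiment 2 at 0.272). GRHL2 in KO2 lay at 56.6 and 61.8 CPM, higher than KMT2D-WT by 0.33 ± 0.09 (adjusted p = 0.0114, lost without either KO2 library). TFAP2C changed by −0.41 ± 0.14 in KO1, a call lost without either KO1 library, WT1 or WT2 (adjusted p up to 0.202), and by −0.61 ± 0.14 in KO2, lost without KO2 of experiment 2 (0.177). SOX2 changed by −2.71 ± 0.60 in KO1 and −3.91 ± 0.70 in KO2, fitted values that went to −8.20 without KO1 and to −8.14 without KO2 of experiment 2, where each line keeps only a library at 0, and the lines differed by 1.20 ± 0.86 (adjusted p = 0.432).

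Genes that work with these factors were then counted by list, to be read against the 24.7% of all genes called with glucose (13% higher, 11.7% lower), the 50.8% called without (25.9% higher, 24.9% lower) and the 11.3% in the test of the difference. Of 30 partner transcription factors (other p63, KLF, GRHL, SOX and homeobox genes of squamous epithelium), 24 were tested with glucose, of which 3 were higher and 5 lower in KMT2D-KO cells (33.3% called, median log2 −0.09, all genes 0.02). TP73, the p63 paralog, was lower by 1.65 ± 0.17 and GRHL1 by 1.15 ± 0.21, while the homeobox gene BARX2 was higher by 1.24 ± 0.23. Without glucose 8 were higher and 5 lower of 23 (56.5% called, median 0.16). FOXE1 was then lower by 2.66 ± 0.14, while BARX2 was higher by 1.95 ± 0.08 and GRHL3, a grainyhead factor of barrier formation, by 1.77 ± 0.14. In the test of the difference between conditions KLF6 had a larger KMT2D-KO effect without glucose by 0.70 ± 0.10 (adjusted p = 0.00189) and FOXE1 a more negative one, by −1.56 ± 0.16.

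Of the genes known as p63 targets of the basal layer, 1 was higher and 7 lower of 30 tested with glucose (26.7% called, near the 24.7% of all genes), and the median log2 value was 0.00 against 0.02 for all genes. Among the lower ones were KRT14, the basal keratin, at −1.74 ± 0.34, PKP1, a desmosomal plaque protein, at −2.58 ± 0.25, COL17A1, a hemidesmosome collagen, at −0.95 ± 0.13 and the laminin receptor subunit ITGA3 at −0.86 ± 0.07. Without glucose 11 were higher and 6 lower of 30 (56.7% called, against 50.8% of all genes, median 0.03). KRT5 was higher by 2.86 ± 0.79, KRT15 by 1.75 ± 0.22 and FGFR2 by 2.10 ± 0.72, and PKP1 was again lower, by −2.05 ± 0.32. KRT5 averages hid a split between the lines with glucose. It was lower in KO1 by −2.63 ± 0.30 and higher in KO2 by 2.34 ± 0.22 than in KMT2D-WT. FGFR2 with glucose was higher in KO2 than in KMT2D-WT by 1.89 ± 0.17, and KO1 against KO2 gave −2.53 ± 0.21. KO1 may be absent from experiment 2 without glucose. For genes that differ between the lines, a change of lines and an effect of glucose therefore cannot be told apart. The log2 value of KMT2D-KO over KMT2D-WT was more positive without glucose for KRT14 by 1.59 ± 0.45 (adjusted p = 0.04). It was also more positive for ITGB4 by 0.84 ± 0.13 and for CDH3 by 0.54 ± 0.13. These were 3 of 30 or 10%, against 11.3% of all genes. For KRT14, at −1.74 with glucose, this difference ran against the direction of the effect with glucose. KRT14 also differed between the lines with glucose, at −2.36 ± 0.22 in KO1 and −1.34 ± 0.20 in KO2 against KMT2D-WT. KO1 against KO2 gave −1.01 ± 0.22 (adjusted p = 0.00415), so a change of lines cannot be told apart from an effect of glucose for KRT14 either.

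Differentiation genes of the upper layers were mostly below the filter, with 14 of 30 tested with glucose and 12 without. PPL and EVPL, plakins of the cornified envelope, were lower in KMT2D-KO cells in both conditions, by −1.39 ± 0.12 and −0.52 ± 0.09 with glucose and by −0.95 ± 0.28 and −0.93 ± 0.11 without. KRT16, a keratin of stressed and wounded epidermis, was higher without glucose by 2.41 ± 0.28, and its KMT2D-KO effect was larger there than with glucose by 2.34 ± 0.48 (adjusted p = 0.0106). TGM1 went the other way in that test of the difference, by −1.68 ± 0.46 (adjusted p = 0.0374). These were 1 higher and 1 lower of 14 tested (14.3% called, against 11.3% of all genes). In all 2 were higher and 3 lower with glucose (35.7% called), and 3 higher and 4 lower without (58.3%). The epithelial junction and splicing genes, many of them known GRHL2 targets, split 3 higher and 6 lower of 20 with glucose (45% called) and 7 higher and 3 lower without (50%). CLDN1, a tight junction protein, was higher by 2.06 ± 0.35 with and by 3.13 ± 0.43 without glucose, while PRSS8, an epithelial serine protease, was lower by −6.16 ± 0.36 and −4.94 ± 0.24. E-cadherin (CDH1) was higher by 1.53 ± 0.39 without glucose. CLDN1 and CDH1 both differed between the lines with glucose. CLDN1 was higher than in KMT2D-WT by 1.31 ± 0.09 in KO1 and by 2.55 ± 0.09 in KO2. CDH1 was higher in KO2 than in KMT2D-WT by 1.15 ± 0.11, and it was lower in KO1 than in KO2 (adjusted p = 4.69e-05). As KO1 may be absent from experiment 2 without glucose, the pooled values there may reflect KO2 more than KO1.

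Mesenchymal transition genes, which OVOL1 and GRHL2 are known to hold down, were 5 higher and 1 lower of 9 with glucose (median log2 1.02), against 13% higher and 11.7% lower of all genes, and 6 higher and 2 lower of 8 without (median 1.5), against 25.9% and 24.9%. TGFBI was higher by 2.96 ± 0.20 and 3.24 ± 0.07, and SNAI2 without glucose by 1.68 ± 0.20, while fibronectin (FN1) was lower by −3.17 ± 0.12 and −2.46 ± 0.09. COL1A1, a fibroblast marker, moved with them, higher by 1.26 ± 0.17 and 1.33 ± 0.14, whereas COL1A2 and COL3A1, higher with glucose by 2.72 ± 0.47 and 5.24 ± 0.89, were at 0.07 CPM or less in every library without glucose. Their part in these counts was not tested. Of 16 factors of glandular and other lineages 6 were tested, with 2 higher and 1 lower with glucose (median log2 −0.10) and 2 higher and 0 lower without. MITF, a melanocyte factor, was lower with glucose by −0.92 ± 0.15, and GATA6, an endoderm factor, was higher by 1.24 ± 0.20 with and 2.51 ± 0.29 without glucose.

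**Figure D5:**
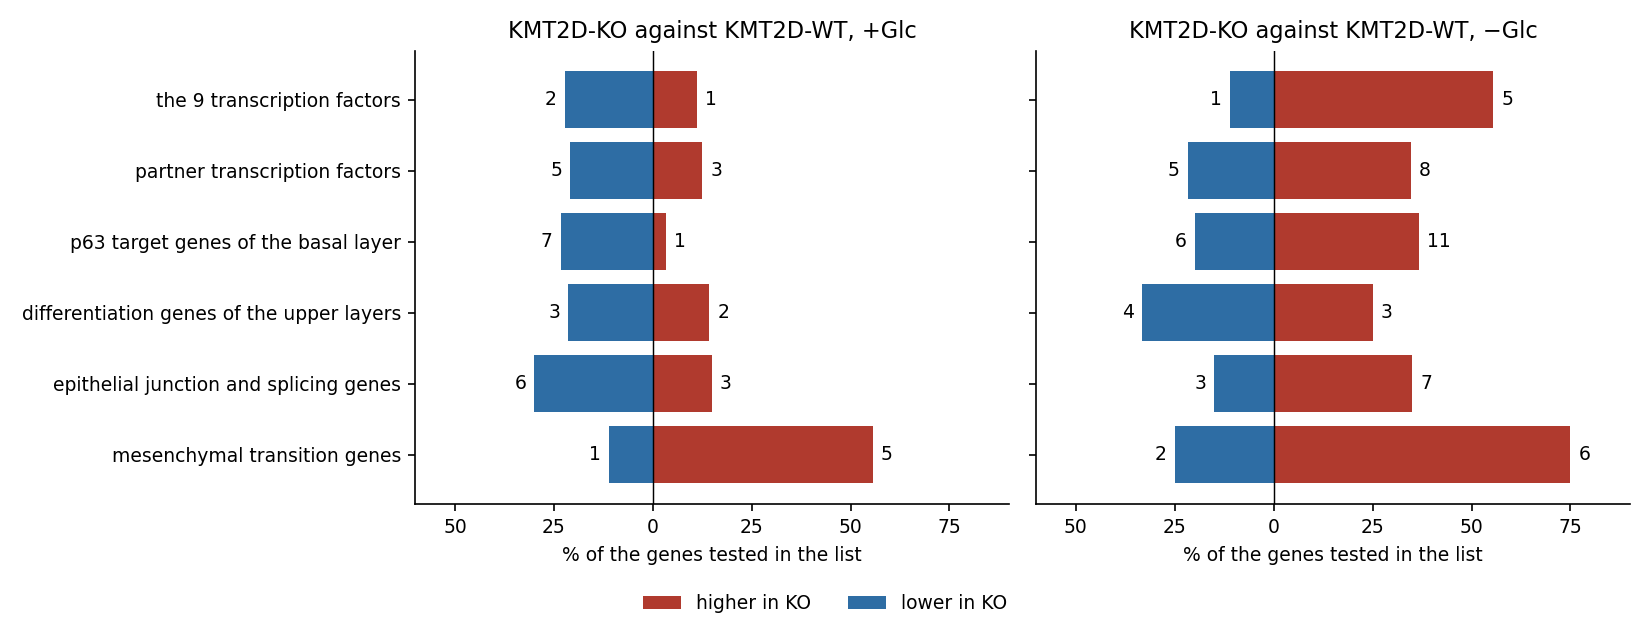
Share of the genes tested in each list that were higher (red, right) or lower (blue, left) in KMT2D-KO cells, with the number of genes at the bar ends, with glucose on the left and without on the right. The 9 factors go from 1 higher and 2 lower to 5 higher and 1 lower, and the p63 targets from 1 and 7 to 11 and 6. All genes tested go from 13% higher and 11.7% lower to 25.9% higher and 24.9% lower. With the close pairs of experiment 2 summed, the 9 factors without glucose are 1 higher and 1 lower.

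Genes that varied most like each factor were sought over the 14 libraries, after the mean of each experiment and glucose condition had been subtracted from log2 CPM, among 10890 genes of at least 5 CPM. These correlations are descriptions, and their points share libraries and genotype. KLF4 was most like GRPEL2 (r = 0.995) and the Krüppel-like factor KLF6 (r = 0.994), and SOX2 most like GOSR1 (0.998) and PRDM8 (0.993). For TP63 they were POU2F1 and HASPIN (0.968 and 0.967), for KLF5 NAMPTP1 and ATXN7 (0.978 and 0.975), and for PITX1 CTSV and EFNA1 (0.977 and 0.963). TFAP2C was most like ALOXE3 and EGR1 (0.969 and 0.966), GRHL2 like ARMC1 and ARGLU1 (0.933 and 0.931), OVOL1 like EML2 and BRI3 (0.911 and 0.909), and TFAP2A like HNRNPKP4 and SRRM1 (0.893 and 0.892).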

How the data were processed

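RNA-seq reads had been mapped with HISAT2 to GRCh38, and the authors deposited unnormalized read counts per gene name from featureCounts 2.0.3 (Ensembl 102, strand ignored, primary alignments). Here counts were scaled by TMM for CPM and RPKM (exon length of the count tables), and genotypes and conditions were compared in R 4.3.3 by edgeR 4.0.16 (low counts removed by filterByExpr at a minimum of 10, quasi-likelihood test, Benjamini-Hochberg adjusted p under 0.05 over all genes tested), with experiment as covariate. Both lines were pooled unless named. The study's methods name DESeq2 without a covariate, kept as an alternative (version 1.42.0). Differences between the experiments correlated over genes between the genotypes (r = 0.912 with and 0.853 without glucose), which is where the pairing by experiment comes from, besides the labels. With glucose, both mates were counted in all libraries of experiment 2 and in none of experiment 1. Such a shared shift can also give a correlation, so the r of 0.912 does not show that cultures were paired. Where nothing marks libraries as separate cultures, p-values measure the spread between libraries only. The 9 factors and all lists were chosen with earlier results of these data known. From each list up to 4 called genes of at least 1 CPM with the largest change could be named. The fits were tested on simulated data. Those data had the same spread for every gene, no difference between experiments and no close pairs. The test therefore does not cover these features of the libraries.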

Additional observations from a re-analysis of the deposited data

Results flagged for a closer look

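The KMT2D-KO effect differed between the glucose conditions for KLF4 (1.85 on the log2 scale, without minus with glucose), KLF5 (1.23) and OVOL1 (1.27). Each was called by the test of the difference itself, and each effect was more positive without glucose. KLF5 (−0.23) and OVOL1 (−0.45) were below 0 with glucose, where neither was called, and above 0 without (0.97 and 0.79). The OVOL1 value with glucose came to −0.02 without KMT2D-WT of experiment 1. KLF5 with glucose was at −0.40 in KO1 and −0.10 in KO2. In experiment 1 without glucose it differed from KMT2D-WT by 0.006 in KO1 and 1.26 in KO2, on the scale of log2(CPM + 0.5). As KO1 may be absent from experiment 2 without glucose, a change of lines and an effect of glucose cannot be told apart for KLF5. Their calls for the difference did not hold with the close pairs of experiment 2 summed. Between the lines with glucose, PITX1 was lower in KO1 than in KO2 (log2 −0.60), as was KMT2D itself (−0.93). Among 20 groups of 4 libraries (the 9 factors and KMT2D in KMT2D-KO cells), 2 values stood apart by Dixon's test at 95%, which chance gives in about 1 of 20 groups. These were KLF4 in KO1 of experiment 1 without glucose at 109.8 CPM, low against 180 to 191 CPM, and TFAP2C in KO2 of experiment 2 with glucose at 7.16 CPM, low against 8.81 to 9.06 CPM. The first is the library in which KMT2D was at 19.9 CPM and in which TP63 was at 84.9 CPM and KLF5 at 89.4 CPM.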

How the results depend on the processing

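RLE scaling, run on all 8 comparisons, left the number of factors called within 1.5 times, as did other filters and DESeq2 with experiment in the 5 comparisons that took both lines as 1 group. Without the replicate block (experiment not a covariate), 1 factor in place of 3 was called for KMT2D-KO with glucose, 2 of 6 without glucose, 0 of 5 for glucose deprivation in KMT2D-WT, 1 of 3 for the difference between conditions, 1 of 5 for KO1, 1 of 4 for KO2 and 0 of 1 between the lines. Among all genes these fits called 971 (5042 with the block), 3659 (8521), 2 (2536), 70 (2105), 526 (6860), 646 (7518) and 10 (3116). DESeq2 with no covariate called 3 without glucose, and 4821 of all 16782 genes. Experiment 1 alone called 0 with and 0 without glucose, and with line as a term 0 for KMT2D-WT, 3 for KMT2D-KO and 1 for the difference, where 304, 0, 4, 1325 and 31 of all genes were called, so that the low counts are not particular to the factors. Summing the close pairs left 2 without glucose, 0 for KMT2D-WT and 1 for the difference (2785, 1 and 258 of all genes). Leaving out single libraries gave 2 to 3 factors with and 2 to 7 without glucose (2142 to 5048 and 6031 to 12448 of all genes). For deprivation it gave 0 to 6 in KMT2D-WT and 4 to 6 in KMT2D-KO cells (0 to 8747 and 1991 to 6553 of all genes). For the difference it gave 1 to 4 (788 to 4230 of all genes). In the line comparisons such fits can leave 1 library of a line, and their counts are not given. The cause of these changes in the counts was not tested.

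No factor that was called changed direction under any alternative. Those that were not called crossed 0 as follows. In experiment 1 alone, TP63 with glucose had −0.020, TFAP2A with glucose 0.038, PITX1 without glucose −0.026, OVOL1 on deprivation in KMT2D-WT −0.67 and TFAP2A on deprivation in KMT2D-KO −0.13. Without the covariate, TFAP2A with glucose had 0.015 by edgeR and 0.033 by DESeq2, TP63 in KO1 −0.011 and OVOL1 in KMT2D-WT −0.13, or −0.0061 with the pair summed. Leaving out single libraries moved TP63 with glucose from −0.039 to 0.208, TFAP2A with glucose from −0.147 to 0.126 and PITX1 without glucose from −0.0054 to 0.061. On deprivation OVOL1 in KMT2D-WT ran from −0.118 to 0.417, and in KMT2D-KO PITX1 from −0.245 to 0.021 and TFAP2A from −0.0059 to 0.163. The difference between conditions of TFAP2C ran from −0.064 to 0.163. In KO1, TP63 ran from −0.088 to 0.198, GRHL2 from −0.019 to 0.137 and TFAP2A from −0.204 to 0.073. In KO2, TP63 ran from −0.115 to 0.288, TFAP2A from −0.099 to 0.179 and OVOL1 from −0.526 to 0.094. Between the lines, TP63 ran from −0.269 to 0.131, SOX2 from −4.34 to 5.47, KLF4 from −0.439 to 0.201 and OVOL1 from −0.826 to 0.279.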
